A study of Danio rerio with 9 samples.

Results

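The transcripts described here are those whose level peaked between 30% epiboly and shield in zebrafish (Danio rerio) embryos, at the onset of gastrulation. They are known only by the oligonucleotide IDs of a spotted array, and the files and tables used here pair no member with a gene. An ID was a member when its red (Cy5) signal exceeded the 95th percentile of the blank spots at 30% epiboly, 50% epiboly and shield, and when its mean log2 ratio over these 3 stages lay at least 1 (2-fold) above both the mean of 64-cell, high and sphere and the mean of 75% epiboly, 90% epiboly and tailbud. That ratio was stage over pool, from background-subtracted spot means with each array's median subtracted. The members were thus chosen by these ratios and signals of the same 9 arrays. Of 16176 IDs with the prefix CGENXEB_, 82 (0.507%) were members. Of the 6440 IDs above the blank level at the 3 peak stages, 1272 met the condition on the rise, and the 82 members were 6.45% of these. The opposite course, with the 3 middle stages at least 1 below both sides, was met by 63 IDs, for which no detection was asked.

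Uninjected embryos of outbred wild-type stock were used, and each sample was a pool taken from 1 clutch of eggs. The 9 stages form 3 periods, the early one (64-cell, high and sphere), the peak (30% epiboly, 50% epiboly and shield) and the late one (75% epiboly, 90% epiboly and tailbud), and were each measured on 1 array of 2 colours. Stage RNA was labelled with Cy5, and a pool of RNA from all the stages was labelled with Cy3 as the common reference. The series text mentions dye swaps, but arrays with exchanged dyes were not analysed here, so that any dye bias of a probe remains in its ratio to the pool. No stage had a replicate, so single values carry no error, and a difference between 2 stages is one between 2 arrays. In whole embryos, fewer cells of a type and less RNA per cell cannot be told apart.

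At the blastula stages the zebrafish embryo passes from maternally supplied RNA to transcription of its own genome, which begins broadly around the midblastula transition. Epiboly, the spreading of the cells over the yolk, starts soon after. When the margin reaches the middle of the yolk cell, the germ ring forms and mesoderm and endoderm internalise, and the shield, the dorsal organiser of the fish, appears. Many regulators of germ layers and body axes are known for short expression around these stages. Which of them, if any, are among the members is not known from these files.

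Over the probe spots of an array the median Cy5 signal was lowest at shield (324.5) and highest at 64-cell (995), and the number of IDs above the blank level was likewise lowest at shield (6531) and highest at tailbud (11273). The blank level itself lay between 384.8 at 50% epiboly and 624 at 75% epiboly. Among the 127 IDs printed more than once the log2 ratios of repeated spots had a pooled SD of 0.50 within an array. In 4 members printed as 2 spots each, the 36 pairs of ratios differed by a median of 0.27 and at most 0.80. The 86 member spots lay in 29 of the 32 print blocks, with at most 8 in 1 block. The median pool (Cy3) signal of the members was 2303, against 2364 for all tested IDs above the blank level at the peak stages and 916 for all tested IDs.

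Below, log2 ratios of stage to pool are given after normexp background correction and loess normalization within each array, on which the median of all tested IDs stayed between -0.02 and 0.01 at every stage. Rise and fall are therefore relative to the other probes of an array and not amounts per embryo. The members lay far below the pool at cleavage, came up through the blastula stages, stood above the pool at the 3 peak stages and had lower medians after them. Their median log2 ratio was -2.04, -1.59 and -0.55 before the peak (64-cell, then high, then sphere), 1.04, 0.82 and 0.82 on it (30% and 50% epiboly, then shield), and 0.10, -0.33 and -0.85 after it (75% and 90% epiboly, then tailbud). The spread among members was wide before the peak and narrow on it, with quartiles of -3.31 and -0.91 at 64-cell and 0.78 and 1.30 at 30% epiboly.

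**Figure D1:**
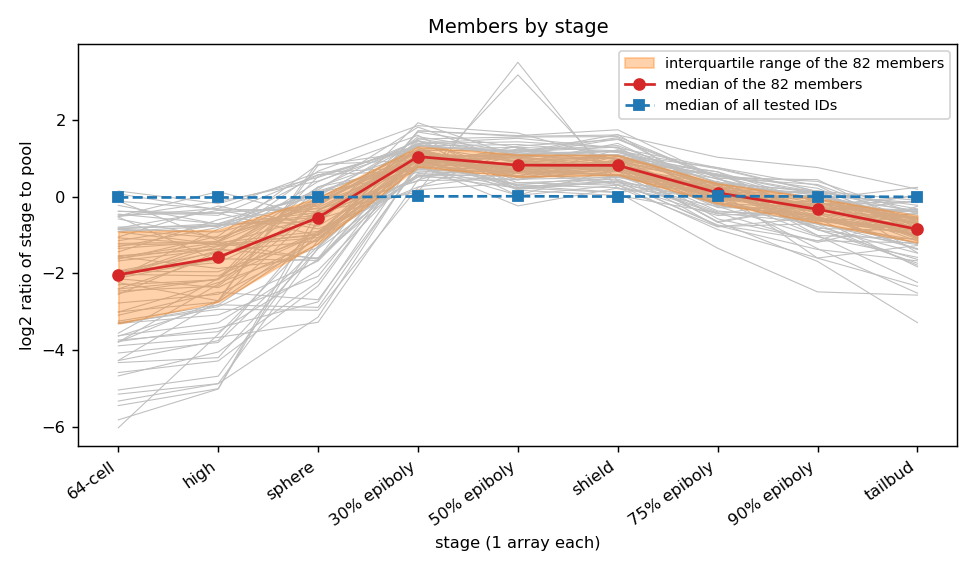
Log2 ratio of stage to pool (vertical axis) at the 9 stages (horizontal axis, 1 array each) for the 82 members (grey lines), with their median and interquartile range, and the median of all tested IDs. The members' median is highest at 30% epiboly (1.04) and lowest at 64-cell (-2.04), and 2 grey lines stand above 3 at 50% epiboly alone.

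The size of the rise and of the fall chose the members and is given as a description only. The mean of the peak stages exceeded that of the early stages by a median of 2.40 (0.52 to 5.27), and that of the late stages by a median of 1.22 (0.79 to 2.86). The rise was the larger of both in 71 members and the fall in 11. A rise of at least 4-fold (2 on the log2 scale) was seen in 50 members, and a fall of that size in 6. By tailbud the members had lost a median of 62.1% (18.9% to 511.8%) of the log2 difference between their peak mean and their 64-cell level. This is a share on the log2 scale and not of the amount of RNA. Only 50 of the 82 were above the blank level at 64-cell, so for the others that level is poorly measured. Tailbud was above 64-cell in 66 members, by at least 2-fold in 47, and below it in 16, by at least 2-fold in 5. The lowest value of the series fell at 64-cell for 54 members, at tailbud for 12, at high for 10, at sphere for 4 and at 90% epiboly for 2.

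Membership had no sharp edge. On the ratio of the rule, the smaller of the rise and the fall was the fall in 66 members. The 5 members nearest the limit had a smaller difference of 1.0003 to 1.01, and the 5 IDs nearest outside it had 0.992 to 0.998. Within 0.1 of the limit lay 24 members inside and 28 IDs outside. With loess ratios in the rule 60 IDs were chosen, 59 of them members. Without the tailbud array 54 IDs were chosen, 52 of them members.

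For a pair of members the peak rested on 1 array. CGENXEB_456014601_0 had a log2 ratio of 3.51 at 50% epiboly, against 0.12 at 30% epiboly and 0.21 at shield. Its Cy5 signal was 159.7 times the blank level at 50% epiboly, 4.90 times at 30% epiboly and 2.87 times at shield. CGENXEB_456002250_0 had a log2 ratio of 3.18 at 50% epiboly, against 0.40 at 30% epiboly and 0.41 at shield. The scanner software flagged both spots on the 50% epiboly array. Of the 8 spots bordering each on that array, 1 (for CGENXEB_456014601_0) and 2 (for CGENXEB_456002250_0) also had a ratio of 2 or more on the scale of the rule. These 2 IDs were picked out after their values were seen, because 1 peak stage exceeded the mean of the others by at least 2. Without them 80 members remained.

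The label names the peak as 30% epiboly to shield. The rule asked for a higher mean over these stages on the same arrays. A highest value there was thus largely set by the choice of members and is no check of the label. Every member had its highest loess ratio at 1 of these stages. It was 30% epiboly for 48 members, 50% epiboly for 16 and shield for 18. The order within the peak depended on the scaling. On the ratio of the rule 36 members were highest at 30% epiboly, 5 at 50% epiboly, 40 at shield and 1 at sphere. In the Cy5 channel alone, quantile normalized between arrays, these counts were 40, 19, 20 and 1, with 1 more at 75% and 1 at 90% epiboly. The median difference of 30% epiboly minus shield among members was 0.13 after loess, -0.02 on the ratio of the rule and 0.17 in the Cy5 channel.

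The rule asked for detection at the peak stages, but its early and late means come from the same Cy5 signals, so that detection outside the peak is not independent of it and is a description here. The members' stage signal had a median of 1.39, 1.18 and 2.92 times the blank level at 64-cell, high and sphere. On the peak it was 7.62 times that level at 30% epiboly, 6.33 times at 50% epiboly and 3.74 times at shield, and after it 4.87, 4.39 and 3.31 times at 75% epiboly, 90% epiboly and tailbud. The shield array was the dimmest of the series. Above the blank level lay 50, 48 and 67 members at 64-cell, high and sphere, all 82 at the peak stages, and 81, 78 and 78 at 75% epiboly, 90% epiboly and tailbud. No member was below the blank level at all 3 late stages, and 76 (92.7%) stayed above it throughout them, against 6391 (99.2%) of the 6440 IDs detected at the peak stages.

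By detection before the peak the members fell into 3 larger classes. The first, with 42 members (51.2%), was above the blank level at all 9 stages, so that signal over blanks was already seen at 64-cell. That signal was read on 1 array and ran from 1.04 times the blank level (CGENXEB_456001058_0) to 56.3 times (CGENXEB_456011322_0). Whether the weakest of these signals are RNA of the member was not tested. The next, with 18 (22%), was below it at 64-cell and high and above it at sphere. Another 10 (12.2%) were below it at all 3 early stages and were first detected at 30% epiboly, and the other 12 had mixed patterns. Among the 6440 IDs detected at the peak stages these shares were 90.1%, 1.38% and 3.68%. Among the 1190 IDs that rose by at least 1 but did not fall by 1 afterwards, they were 59.9%, 5.80% and 19.1%. A low early ratio chose the members, so these shares are descriptions with no test.

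**Figure D2:**
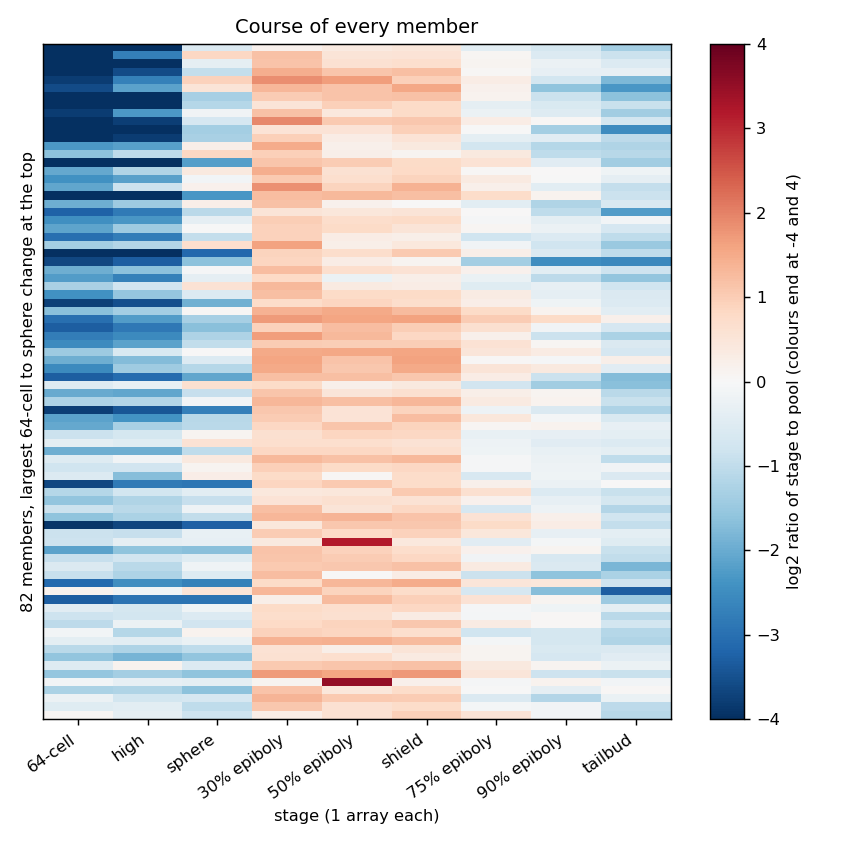
Log2 ratio of stage to pool (colour, ending at -4 and 4) for each of the 82 members (rows, ordered by the fitted change between 64-cell and sphere, largest at the top) at the 9 stages (columns, 1 array each). In the upper rows the early low ends at sphere and in many lower rows at 30% epiboly. Most rows pass from red at shield to blue at tailbud. In 62 of the 82 the ratio is lower at each of the 3 last steps (10.7% of all tested IDs), in part set by the choice of members. In 2 rows a single dark red cell stands at 50% epiboly.

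The rule compared the means of 3 periods of 3 stages, and a straight-line change inside a period is orthogonal to these means, although members also had to exceed the blank level at each peak stage. Each period's fitted change, its last minus its first stage on a straight line, was therefore tested for all 16106 tested IDs in limma (3 residual degrees of freedom, two-sided, Benjamini-Hochberg adjustment, threshold 0.05). With 3 stages in a period, the fitted change equals the ratio on its last array minus that on its first. It is thus a difference between single arrays. The error is the scatter of the arrays around the fitted line of their period, pooled over the 3 periods, in place of replicates. An SE given below measures this departure from straight lines and not the spread of repeated samples. Each sample was a pool from 1 clutch, so variation between clutches was not measured. Arrays that share a clutch are not independent samples. The orthogonality concerns array noise only. IDs chosen for a rise and a fall may be more likely than others to change inside the early and late periods too. A share above that of all tested IDs is thus no independent support for the peak.

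A share of the members rose before 30% epiboly. Between 64-cell and sphere 22 of the 82 (26.8%) rose, by a fitted 1.53 to 5.24 on the log2 scale, whereas 0.633% of all tested IDs were called in this direction. No member was called as falling in limma (background 0.118%), and at an unadjusted p under 0.05 there were 56 members with a positive change and 1 with a negative one, against 5.51% and 4.26% of all tested IDs. The median fitted change was 1.19 among members (quartiles 0.47 and 2.16), against 0.03 among all tested IDs. It was above 0 in 74 of the 82, against 8652 of the 16106 tested IDs. Among the 1190 IDs that rose without falling back it was above 0 in 989. Of these 1190, 346 had a positive and 13 a negative change at an unadjusted p under 0.05 (limma). In 46 members it was at least 1, a size reached by 1.86% of all tested IDs. That size was reached by 259 of the 6440 IDs detected at the peak stages. It was also reached by 181 of the 1190 IDs that rose without falling back. Among all tested IDs detected at the peak stages 1.43% were called as rising, and among the 1190 that rose without falling back 65 (5.46%).

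The 22 called members had a median ratio of -3.68 at 64-cell, -2.72 at high, -0.56 at sphere and 1.18 at 30% epiboly. For the 60 others these medians were -1.49, -1.26, -0.55 and 1.00. The lower start of the called members is part of what the call selects, while the medians at sphere lay 0.02 apart. Of the 22, 7 were above the blank level at 64-cell and 21 at sphere, so that for 15 of them the starting level is poorly measured. Of the 60 others 43 were above it at 64-cell. When only IDs above the blank level at all 3 early stages were fitted, 3 of 42 members rose, against 0.29% of the 8617 IDs in that fit. On the ratio of the rule 5 of the 82 were called, with a background of 0.0869%.

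The sphere array carried this result: without it 1 member was called (background 0.0248%). Without high there were 36 (background 0.993%). The members' median change was then still 1.19, and only the estimated error and its degrees of freedom differed. Without 64-cell there were 24 (background 0.528%), and only 15 of them were among the 22 called with all 9 arrays. Without the first or last stage of a period, the fitted change extends the 1 remaining step over the whole period. The arrays of the other periods enter this test only through the estimated spread, and without 1 of them there were 9 (without 30% epiboly, 50% epiboly or shield, background 0.168% each) or 7 (without 75% epiboly, 90% epiboly or tailbud, background 0.174% each). The share called among all tested IDs thus moved together with the members' count. Of the 35 members with no flagged spot on any array, 8 rose.

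Inside the peak no change was called. From 30% epiboly to shield no member was called in limma in either direction, as was none of the 16106 tested IDs (background 0%). At an unadjusted p under 0.05, 2 members were higher at shield and 4 lower, against 468 and 381 of all tested IDs. The median fitted change was -0.13 among members (-1.18 to 0.73) and 0.00 among all tested IDs. The sign of this median depended on the scaling, as it was 0.02 on the ratio of the rule. Leaving out 1 array gave at most 2 called members (rising, without shield, as did 0.0435% of all tested IDs) and 1 (falling, without 30% epiboly, as did 0.0186%). Of 50 IDs simulated with a change of 1 in this period 15 were called, and of 50 with a change of 2 there were 49. That simulation used independent normal noise and 200 changed IDs, so these shares need not hold for the data. In the data fitted changes of -4.56 to 2.56 were found among all tested IDs, with a lowest adjusted p of 0.67 (limma).

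After 75% epiboly nearly all members had a negative fitted change, but few passed the test. Between 75% epiboly and tailbud 3 of 82 (3.66%) fell, by a fitted 1.66 to 2.63 on the log2 scale (limma, adjusted p 0.032 to 0.047), and 0.0559% of all tested IDs did. No member rose in limma (background 0.0683%). At an unadjusted p under 0.05, 0 members had a positive change and 49 a negative one, against 6.31% and 6.69% of all tested IDs. The median fitted change was -0.97 among members (quartiles -1.31 and -0.43) and -0.02 among all tested IDs. It was below 0 in 78 of 82 members, against 8476 of the 16106 tested IDs and 631 of the 1190 that rose without falling back. In 38 members it was -1 or lower, a size that 1.66% of all tested IDs reached. That size was reached by 194 of the 6440 IDs detected at the peak stages. It was also reached by 41 of the 1190 IDs that rose without falling back. Members were chosen for a fall after shield, and these 1190 for its absence. Another 400 IDs detected at the peak stages fell by at least 1 without a rise of 1 before. They were not set beside the members. Without 64-cell, high or sphere 10 members were called (background 0.0931% each), with the same fitted changes and another estimated error. Without any 1 of the 6 other arrays 0 were called (background 0% to 0.0248%). Median changes among members were -0.97 to -0.86 in all these fits. Those without 75% epiboly or tailbud extend the remaining step over the whole period. Only 1 of the 3 called members, CGENXEB_456002526_0, had no flagged spot. Its Cy5 signal was 1.52 times the blank level at 75% epiboly, 0.961 at 90% epiboly and 0.656 at tailbud, so its late level is poorly measured. When only IDs above the blank level at all 3 late stages were fitted, 2 of 76 members fell (background 0.0728%). Members were flagged most often at 75% epiboly, 26 of the 82, against 1863 of all 16176 IDs. Over all IDs the most, 3077, were flagged at 30% epiboly. Across the 82 members the early and the late fitted change had a Spearman correlation of -0.16, a description of values that share the pool, the arrays and the estimated error.

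**Figure D3:**
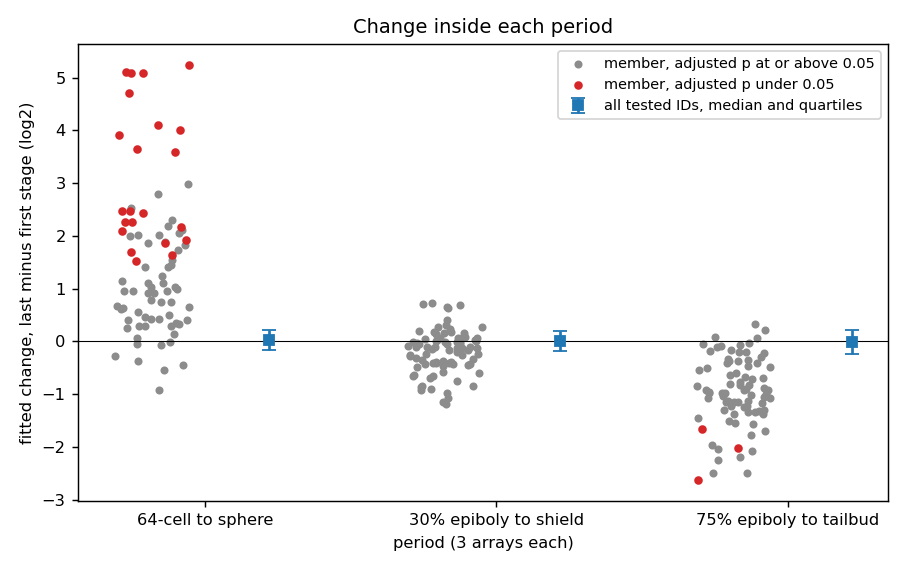
Fitted change between the first and last stage of each period (vertical axis, log2) for the 82 members (points, red where the limma adjusted p was under 0.05) and, to their right, the median and quartiles of all 16106 tested IDs (blue squares and bars). The members' medians are 1.19, -0.13 and -0.97 from left to right, and those of all tested IDs lie within 0.03 of 0.

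Between neighbouring stages, 44 members (53.7%) were at least 2-fold higher at sphere than at high (background 1.42%). Both stages enter the early mean of the rule, so this share is no independent support for an early rise. The 1190 IDs that rose without falling back were not set beside the members for these steps. From 64-cell to high 7 members were at least 2-fold higher (background 0.379%) and 2 at least 2-fold lower (0.41%). From high to sphere none was 2-fold lower (0.671%), and the median difference was 1.04. From sphere to 30% epiboly 61 (74.4%) were higher (background 7.44%) and none lower (6.53%), with a median of 1.59. This step lies inside the difference that chose the members, and nothing is read from its size. From 30% to 50% epiboly 3 were higher (0.646%) and 5 lower (0.801%), and from 50% epiboly to shield none was higher (0.155%) and 2 lower (0.174%). The 2 members that rested on the 50% epiboly array were among these 3 and were these 2.

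After shield, how the lower ratios were spread over the 3 steps depended on the scaling. From shield to 75% epiboly 24 members (29.3%) were at least 2-fold lower (background 1.46%), also inside the difference that chose them, with a median of -0.79. From 75% to 90% epiboly 13 (15.9%) were lower (background 0.484%), with a median of -0.43, and from 90% epiboly to tailbud 12 (14.6%) were lower (background 0.503%), with a median of -0.45. On the ratio of the rule 43 (52.4%) were lower at the first of these steps (background 3.99%), 8 (9.76%) at the second (3.18%) and 21 (25.6%) at the third (3.23%), with medians of -1.02, -0.30 and -0.64. At none of the 3 steps was a member 2-fold higher on the loess ratio (backgrounds 0.813%, 0.329% and 0.59%). In 62 members the loess ratio was lower at each of the 3 steps, as in 10.7% of all tested IDs. Members were chosen for a late mean below their peak mean, so this contrast is in part set by the rule. These are differences between single arrays and have no test.

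**Figure D4:**
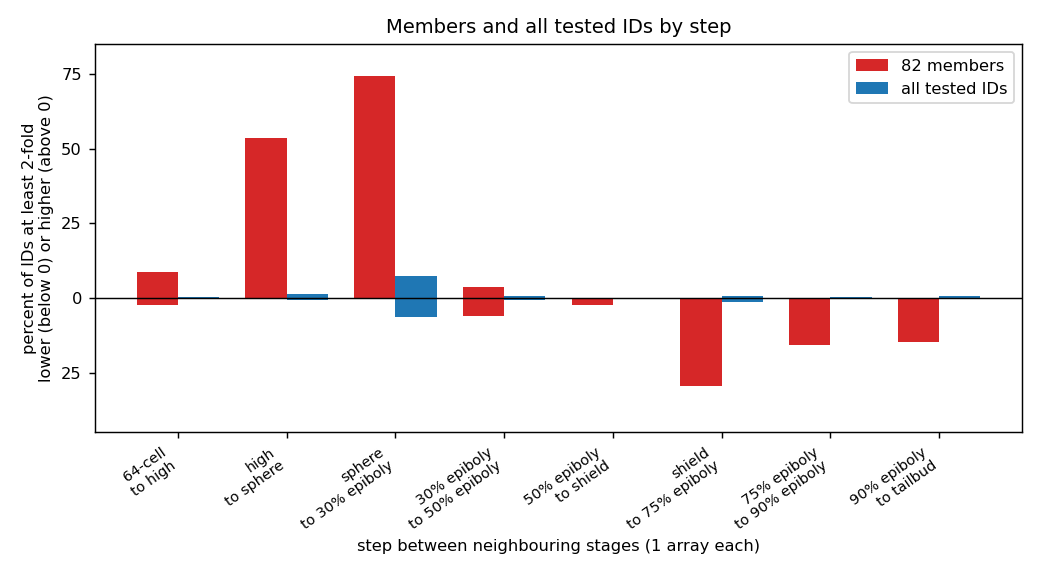
Percent of IDs that were at least 2-fold higher (above 0) or lower (below 0) at the later stage of each step (horizontal axis, 1 array per stage), for the 82 members (red) and for all 16106 tested IDs (blue). The members reach 53.7% and 74.4% higher at the steps into sphere and into 30% epiboly, and 29.3%, 15.9% and 14.6% lower at the last 3 steps.

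The pool channel, which held 1 and the same RNA on all 9 arrays, was set beside the stage channel, both quantile normalized. A member's Cy5 signal spanned a median of 3.34 on the log2 scale over the 9 arrays (1.28 to 6.62) and its Cy3 signal a median of 0.62 (0.15 to 3.57). Over all tested IDs these medians were 1.20 and 0.55. In the pool channel no member was 2-fold higher from high to sphere (background 0.199%) or from sphere to 30% epiboly (background 0.31%). From 30% to 50% epiboly 2 members were 2-fold higher there (background 0.503%), CGENXEB_456008158_0 and CGENXEB_456014601_0, and the same 2 were 2-fold lower from 50% epiboly to shield (background 0.733%). From shield to 75% epiboly 3 members were 2-fold higher (background 2.16%) and none lower (0.795%). Their log2 differences were 3.28 (CGENXEB_456015751_0), 1.34 (CGENXEB_456014732_0) and 1.00 (CGENXEB_456014847_0). At each of the last 2 steps 1 member was 2-fold lower (backgrounds 2.02% and 0.503%). These were CGENXEB_456015751_0 (-3.33) and then CGENXEB_456010580_0 (-1.14). The part of these pool differences in the members' fall was not tested. Of the 4 kinds of control spots, 2 moved by over 0.6 at the step into the peak. The 172 spots of the control CGENZFCTRL_40001_0 had a mean log2 ratio of -0.21 at 30% epiboly, against -0.84 at sphere. Their mean was -0.18 at shield and 0.09 at tailbud. The pooled control, with 31 spots, had -0.15 at 30% epiboly, against -0.91 at sphere, then -0.13 at shield and 0.04 at tailbud. The 262 blanks had 0.68 at 30% epiboly, against 0.65 at sphere. They went down from 0.69 at shield to 0.40 at tailbud, the direction of the members' medians. The 16 polyA spots had 0.58 at 30% epiboly, against 0.34 at sphere, then 0.27 at shield and 0.81 at tailbud. The part of the control spots' shifts in the members' rise and fall was not tested.

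Named by rule among the 35 members with no flagged spot and no spot at the top of the scanner's range were the 2 with the largest rise into the peak and the 2 others with the largest fall after it. Their sizes of rise and fall are descriptions, while their changes inside a period were tested. Each such change is a difference between 2 single arrays, and its SE is scatter around straight lines, not between replicates.

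Among these 35, CGENXEB_456002650_0 had the largest rise, 4.98 between the peak and the early mean. Its log2 ratio was -4.59, -4.29 and -2.33 before the peak (64-cell, then high, then sphere), 1.24, 1.29 and 1.20 on it (30% and 50% epiboly, then shield), and 0.72, 0.13 and -0.85 after it (75% and 90% epiboly, then tailbud). Its 3 peak values lay close together, and at tailbud it was still 3.74 above 64-cell. Its Cy5 signal was below the blank level at 64-cell and high (0.755 and 0.713 times), 2.35 times it at sphere and 25.3 times at 30% epiboly. The rise between 64-cell and sphere was 2.26 ± 0.39 (SE, 9 arrays; limma, adjusted p = 0.048), and the change between 75% epiboly and tailbud was -1.57 ± 0.39 (adjusted p = 0.15). Over the alternatives the early rise was 0.61 to 3.92, with limma adjusted p-values of 0.0032 to 0.9999. The lowest rise was without sphere and the highest without 64-cell. Both extend the remaining step over the whole period and are not observed changes.

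CGENXEB_456014847_0 was 4.96 higher in the peak mean than in the early mean. Its log2 ratio was -5.34, -4.88 and -1.33 before the peak (64-cell, then high, then sphere), 1.00, 1.14 and 1.18 on it (30% and 50% epiboly, then shield), and 0.14, -0.86 and -1.64 after it (75% and 90% epiboly, then tailbud). The step from high to sphere was thus its largest. By tailbud its log2 ratio had lost 42.6% of the log2 difference between peak mean and 64-cell, against 35.8% in the member before. Its Cy5 signal passed the blank level at sphere, with 6.37 times it against 0.865 times at high. On the peak this signal was 22.3, 18.7 and 11.4 times the blank level, and after it 24.3, 25.3 and 20.2 times. The lower late ratio was thus not matched by a lower Cy5 signal over blanks. Its pool signal was higher by 1.00 at 75% epiboly than at shield, and the part of this in the fall was not tested. The early rise was 4.0 ± 0.64 (SE, 9 arrays, limma, adjusted p = 0.035). Over the alternatives it was 0.91 (without sphere) to 7.10 (without 64-cell), with limma adjusted p-values of 0.00017 to 0.9999. Both of these ends extend the remaining step over the whole period and are not observed changes. The late change was -1.78 ± 0.64 (adjusted p = 0.28).

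Among the 35 members with no flagged spot, CGENXEB_456001058_0 had the largest fall, 2.60 between the peak and the late mean. Its log2 ratio was -3.56, -2.14 and 0.53 before the peak (64-cell, then high, then sphere), 1.34, 1.15 and 1.54 on it (30% and 50% epiboly, then shield), and 0.16, -1.61 and -2.34 after it (75% and 90% epiboly, then tailbud). It stood above the pool already at sphere. Its Cy5 signal exceeded the blank level at all 9 stages, from 1.04 times at 64-cell to 15.6 times at 30% epiboly and 2.19 times at tailbud. The early rise was 4.09 ± 0.39 (SE, 9 arrays; limma, adjusted p = 0.0059; 0.00061 to 0.47 over the alternatives). The late change of -2.50 ± 0.39 did not pass the threshold (limma, adjusted p = 0.062, and 0.032 to 0.75 over the alternatives). It was -1.47 without 75% epiboly and -3.53 without tailbud, each the remaining step extended over the whole period.

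CGENXEB_456016019_0 fell by 2.10 between the peak and the late mean and entered the peak in 1 step. Its log2 ratio was -1.54, -1.37 and -1.61 before the peak (64-cell, then high, then sphere), 1.72, 1.59 and 1.74 on it (30% and 50% epiboly, then shield), and 0.49, -0.83 and -0.89 after it (75% and 90% epiboly, then tailbud). The early change was -0.07 ± 0.34 (SE, 9 arrays; limma, adjusted p = 0.99), and the signal stayed near the blank level there, with 1.19 times it at 64-cell, 0.829 at high and 0.770 at sphere, against 6.18 times at 30% epiboly. The late change was -1.38 ± 0.34 (adjusted p = 0.14; 0.10 to 0.99 over the alternatives). It was -0.13 without 75% epiboly and -2.63 without tailbud, each the remaining step extended over the whole period.

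**Figure D5:**
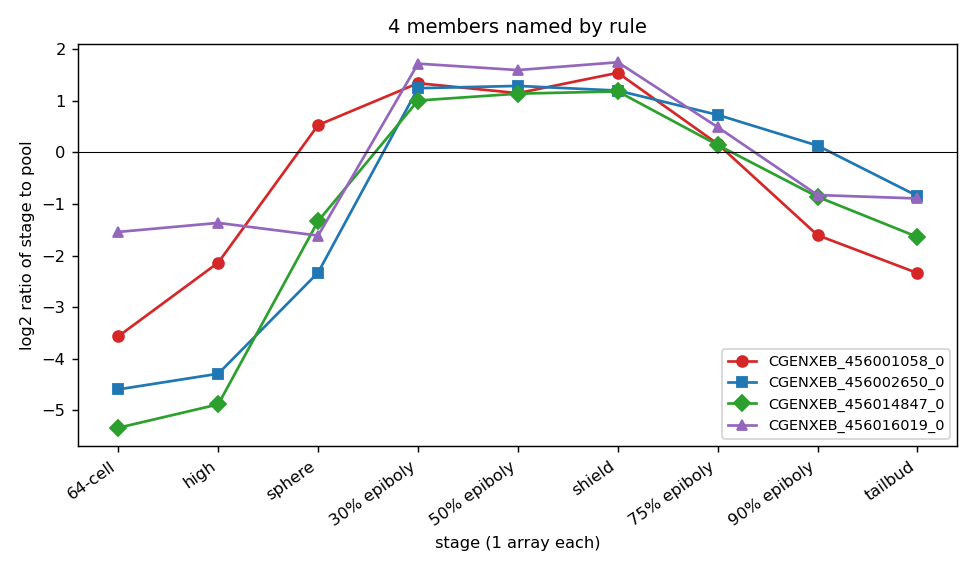
Log2 ratio of stage to pool (vertical axis) at the 9 stages (horizontal axis, 1 array each) for the 4 members named by rule (1 line each). All 4 lie between 1.00 and 1.74 at the peak stages, while at sphere they lie between -2.33 and 0.53.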

How the data were processed

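Each of the 9 stages was measured on 1 two-colour spotted oligonucleotide array. Per the file headers, the deposited scanner tables are Imagene files with spot and background intensity in red and green, on a linear scale and not normalized. The meaning of the flag codes is unstated in them. The authors' deposited value table holds log2 ratios of stage to pool that are not centred, and was an alternative with medians subtracted.

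Members followed the rule given in the report. Members and lists were chosen with earlier results of these data known. Ratios for values and tests were made in limma 3.58.1 (R 4.3.3) with normexp (offset 50), loess within arrays (control spots at weight 0) and the mean over the spots of an ID. Testing was limited to IDs more than 2 background SD brighter than the local background (medians) in 1 channel on 3 arrays, which kept 16106 of 16176 and all 82 members. The model held 3 period means and 3 slopes. Alternatives changed the scale of the ratios, the background correction, the filter on dim probes, the size rule and the set of arrays. Of the 16896 spots, 262 were blanks. The number of arrays limits the precision.

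The slope test was tested on simulated data for the 16106 IDs, with independent normal noise and 200 changed IDs per period. These settings differ from the data, so the shares called need not hold there. Of 50 IDs given a 2-fold change, 16 were called between 64-cell and sphere, 15 between 30% epiboly and shield and 22 between 75% epiboly and tailbud. Of 50 given a 4-fold change these counts were 50, 49 and 49, and among unchanged IDs 8, 7 and 11 were called. Members were named by rule, 2 by the largest rise and 2 by the largest fall among those with no flagged spot and no spot median of 65000 or more. The gene lists planned for this work could not be applied, since no member has a gene name here. No oligonucleotide sequence was used.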

Additional observations from a re-analysis of the deposited data

How the results depend on the processing

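No stage had a replicate, and depth over blanks limits the early values of the members most. No paired analysis was possible because each stage has 1 array and the labels give no replicate numbers. The 82 members became 27 when a difference of 1.5 was asked on both sides, 41 when each peak stage had to lie at least 1 above both means, and 54 to 105 when 1 array was left out. Under the 7 other settings there were 60 to 106. The 22 members rising from 64-cell to sphere became 5 on the ratio of the rule and in the authors' value table, 3 among IDs above blanks at the 3 early stages, 46 with a size rule of 1 in place of the test, 8 among members with no flagged spot (chosen after seeing the data), and 1 to 36 without 1 array. Without the sphere array the slope rests on 64-cell and high alone and extends their step over the whole period. The 36, called without high, had the same fitted changes with another estimated error. From 30% epiboly to shield 3 members fell by the size rule, as did 62 of all 16106 tested IDs. Without 1 array 0 to 2 members rose and 0 to 1 fell in this period. From 75% epiboly to tailbud the 3 falling members became 1 without a filter on dim probes, 38 by the size rule, 1 among members with no flagged spot, and 0 to 10 without 1 array. For the 2-fold steps, the ratio of the rule gave 43 lower members from shield to 75% epiboly (background 3.99%) and 8 from 75% to 90% epiboly (3.18%). It gave 21 lower from 90% epiboly to tailbud (3.23%) and 2 higher from 50% epiboly to shield (0.956%). The Cy5 channel alone gave 4 higher from 64-cell to high (background 0.733%) and 2 higher from 50% epiboly to shield (1.26%). It gave 1 higher from shield to 75% epiboly, 1.22% of members against 3.76% of all tested IDs. From 75% to 90% epiboly it gave 1 higher (1.22% against 2.54%) and 5 lower (6.1% against 4.08%). In this channel the share lower at that step was thus near that of all tested IDs. The members highest at 50% epiboly numbered 5 on the ratio of the rule, and those highest at shield 40 there and 30 with normexp and median without loess (chosen after seeing the data). The causes of these differences were not tested.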
